A study of Mus musculus with 12 samples.

Results

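Serum-grown cortical astrocytes, 3 of the 12 mouse libraries of the series, were set against the 9 libraries of its proliferating cultures. A gene was counted when all 3 Astrocytes libraries lay above, or all 3 lay below, every one of the 9 others. Of 16982 genes tested, 2938 lay above all 9 (17.3%) and 3825 below all 9 (22.5%), while 10219 did neither. Testing was limited to genes with 1 FPKM or more in at least 3 libraries and the status OK in all 12. FPKM are fragment counts corrected for the length of the transcript and the depth of the library.

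All groups are C57BL/6 mouse cells with no genotype given beyond the strain. Astrocytes (3 libraries) are labelled cortex and E14.5 (embryonic day), and the growth text describes a medium with 10% heat-inactivated serum, B27 and Glutamax on a poly-lysine coat. The astrocytes were, by that text, sorted for GLAST from the cortex of pups or derived from neurospheres, and which of these was used here is not stated. MIM-Astrocytes (3 libraries) carry the same tissue and age labels and, by the protocol, were moved from that medium to a serum-free one with B27, N2, FGF2 at 20 ng/mL and up to 6 metabolites, until day 5 at the latest. NSC (3 libraries) are neural stem cells, labelled cortex and E14.5 too, and grew as floating neurospheres with EGF and FGF2 at 20 ng/mL each. Glioblastoma (3 libraries) is labelled cerebella and E18.5, and neither how these tumour cells were made nor their medium is given. Astrocytes differ from MIM-Astrocytes and NSC in serum, growth factors and cycling state at once. They differ from NSC also in growing on a coat, and from MIM-Astrocytes in N2 and metabolites. From Glioblastoma they differ in cycling state, tissue and age, with its medium unknown. The source of the astrocytes may add to each of these, and none of them can be told apart. Whether the 3 libraries of each group derive from separate cultures or animals is not stated, and p-values therefore cover only the spread between libraries, which may be technical. In bulk RNA, fewer cells of a type and less RNA per cell cannot be told apart.

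Cells that leave the division cycle stop transcribing the genes of DNA synthesis and mitosis, which in cycling cells are switched on in turn by E2F factors and by a complex that binds a promoter element called CHR. Astrocytes kept in serum are known for flat, stress-fibre-rich cells with high Gfap, and serum carries growth factors, TGF-beta and lipids. Reactive astrocytes, the form seen after injury or inflammation, raise Gfap together with complement, acute phase and interferon-induced genes.

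Fragments implied by the intervals of the deposited values came to 10080000 to 11430000 in Astrocytes, against 11060000 to 14750000 in the others. The FPKM sum was 514728 to 623809 in Astrocytes, against 665449 to 979106 in the others. Protein-coding genes held 56.3% to 63.3% of it in Astrocytes, against 39.8% to 51.7%, and small RNA genes held 28.3% to 36.0%, against 36.8% to 49.8%. In each of these 3 measures of the sum no Astrocytes library overlapped the others (two-sided exact permutation p = 0.00909, the smallest that 3 against 9 libraries allow). Their part in the results was not tested. The median of all tested genes was -0.14 in Astrocytes minus the average of the 3 groups on the log2(FPKM + 1) scale, and +0.22 after rescaling every library to a common total. Genes above all 9 made up 43.4% of the genes above or below all 9 as deposited. That share was 53.7% after median-of-ratios scaling, 52.4% after quantile normalization, 72.2% after rescaling to a common total and 53.0% when mitochondrial genes and small RNAs were removed first. Across the tested genes, libraries of 1 group correlated at 0.970 to 0.971 on average, and Astrocytes correlated at 0.854 with MIM-Astrocytes, 0.797 with NSC and 0.736 with Glioblastoma.

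Differences were fitted with limma on the log2(FPKM + 1) scale, which understates the change of weakly expressed genes, as Astrocytes minus the average of the 3 other group means, with adjusted p-values over all tested genes. This fit called 5200 genes higher (30.6%) and 7457 lower (43.9%). It was fitted to the values that the rule used, so a call of a gene above or below all 9 is no further support for it. The limit of 1 FPKM in 3 libraries bears on the counts too. Of the tested genes 848 reached it only with the help of the Astrocytes libraries, and 593 of these lay above all 9. Of the 16134 that reached it in the 9 others alone 2345 lay above. Counts over the tested members of a list are therefore descriptions, and the number listed is given where more than a few members were lost. At least a 2-fold distance from the nearest group was kept by 1001 genes above (5.89%) and 852 below (5.02%), and a 4-fold distance by 299 and 230. Among the 1001 genes the median level was 13 FPKM in Astrocytes, against 2.2 in MIM-Astrocytes, 1.1 in NSC libraries and 0.981 in Glioblastoma, and MIM-Astrocytes was the next highest group for 619 of them (61.8%). Among the 852 the median was 2.96 FPKM in Astrocytes, against 19.7, 18.2 and 27.8 in MIM-Astrocytes, NSC and Glioblastoma. At the edge of the rule, Gpr107 lay just inside, with 29.6 FPKM in its lowest Astrocytes library and also 29.6 in the highest other library, and Ppm1f just outside, with 25.8 on both sides. On the other side Zfp408 lay just inside and Btbd6 just outside.

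**Figure D1:**
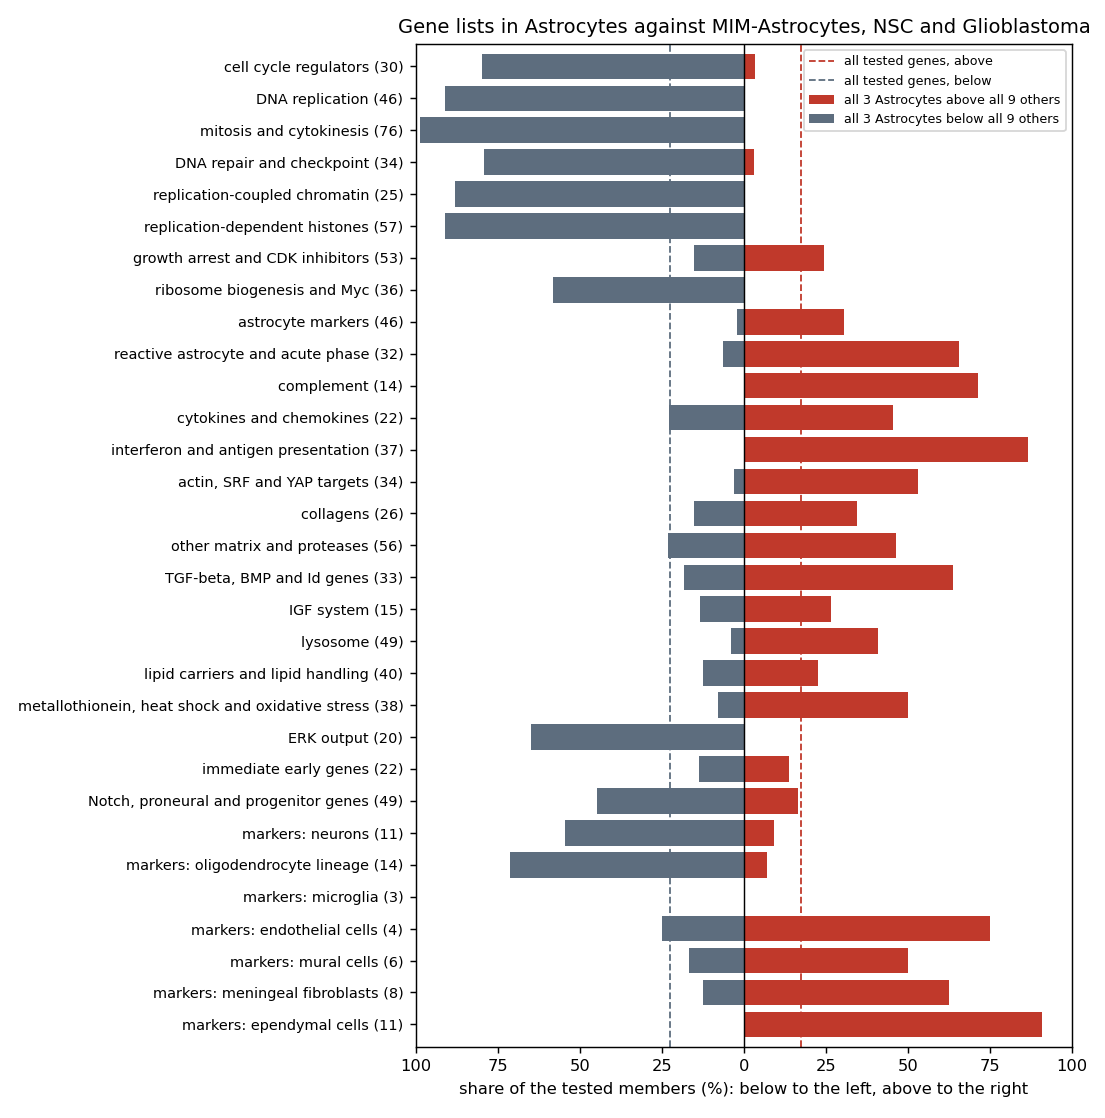
Share of the tested members of 31 gene lists that lay above all 9 other libraries (bars to the right, %) or below all 9 (bars to the left, %) in Astrocytes, with the number tested in parentheses and dashed lines for all tested genes (17.3% above, 22.5% below). Lists of cell division fill the left side, with 75 of 76 mitosis genes, and the interferon and ependymal lists reach furthest to the right, with 32 of 37 and 10 of 11 tested genes, of 44 and 22 listed.

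The cycle's own markers are given first. The sample labels state no cycling state, and the rule used these same values, so they describe that state and do not test it. Mki67, a nuclear protein of dividing cells (ENSMUSG00000031004.8, chr7:135689784-135716361, minus strand), had 0.0982, 0.128 and 0.11 FPKM in Astrocytes, against 52.9, 51.3 and 51.5 in MIM-Astrocytes, 21.6, 19.6 and 19.6 in NSC libraries and 22.2, 22.2 and 21 in Glioblastoma. Every Astrocytes library lay far below all 9 others, and the difference was -4.73 (SE 0.04, adjusted p = 1.37e-13). Top2a, a topoisomerase that frees sister chromosomes from each other (ENSMUSG00000020914.17, chr11:98992943-99024189, minus strand), had 0.89, 0.99 and 0.952 FPKM in Astrocytes, against 155, 152 and 143 in MIM-Astrocytes, 52.1, 49 and 42.6 in NSC libraries and 186, 176 and 187 in Glioblastoma. It stayed under 1 FPKM in each Astrocytes library and nowhere else, a difference of -5.83 (SE 0.06, adjusted p = 3.37e-13). Cdk1, the kinase that drives entry into mitosis (ENSMUSG00000019942.13, chr10:69335146-69352938, minus strand), had 1.39, 1.63 and 1.5 FPKM in Astrocytes, against 84.9, 97.6 and 89.8 in MIM-Astrocytes, 26.7, 22.9 and 21.7 in NSC libraries and 68.9, 78.6 and 84.2 in Glioblastoma. Cdk1 was low but measurable in all 3 Astrocytes libraries (difference -4.48, SE 0.08, adjusted p = 1e-11), and its cyclins Ccnb1 and Ccnb2 stood at 0.201 to 0.348 and 0.0928 to 0.221 FPKM there, against 18.55 to 49 and 7.33 to 22.7 in the others.

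Mitosis genes lay below all 9 in 75 of 76 cases, against 22.5% of all tested genes, and none lay above. Their median difference was -3.06, against -0.14 over all tested genes, and 50 of the 76 stayed under 1 FPKM in Astrocytes. Prc1, which bundles the midzone of the spindle, had 0.402, 0.68 and 0.562 FPKM in Astrocytes, against 98, 90.4 and 86.3 in MIM-Astrocytes, 23.2, 25 and 20.7 in NSC libraries and 55.7, 54.2 and 56.9 in Glioblastoma. Ube2c, the ubiquitin-conjugating enzyme of the anaphase-promoting complex, had 0.0734, 0.133 and 0.0451 FPKM in Astrocytes, against 43.3, 50.9 and 46.7 in MIM-Astrocytes, 17.5, 18.2 and 15.8 in NSC libraries and 40.9, 41.1 and 41.9 in Glioblastoma. Both were lower in every Astrocytes library than in any other, with differences of -5.02 (SE 0.07, adjusted p = 2.48e-12) and -4.94 (SE 0.06, adjusted p = 7.69e-13).

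The summed level of the 76 genes was 87 to 104 FPKM in Astrocytes, against 2064 to 2208 in MIM-Astrocytes, 673 to 762 in NSC and 1698 to 1745 in Glioblastoma. NSC was thus the nearest of the 3, with a median difference of -2.27 from Astrocytes, beside -3.59 for MIM-Astrocytes and -3.41 for Glioblastoma. Cell cycle regulators had 24 of 30 tested members below and 1 above (median difference -1.79). The one above was Ccnd3, a D cyclin also found in differentiated tissues, with 51.3, 49.5 and 41.4 FPKM in Astrocytes, against 19, 29.7 and 29.5 in MIM-Astrocytes, 15.5, 17.5 and 17.3 in NSC libraries and 22.4, 24.9 and 26.5 in Glioblastoma, a difference of 1.07 (SE 0.13, adjusted p = 2.42e-05).

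**Figure D2:**
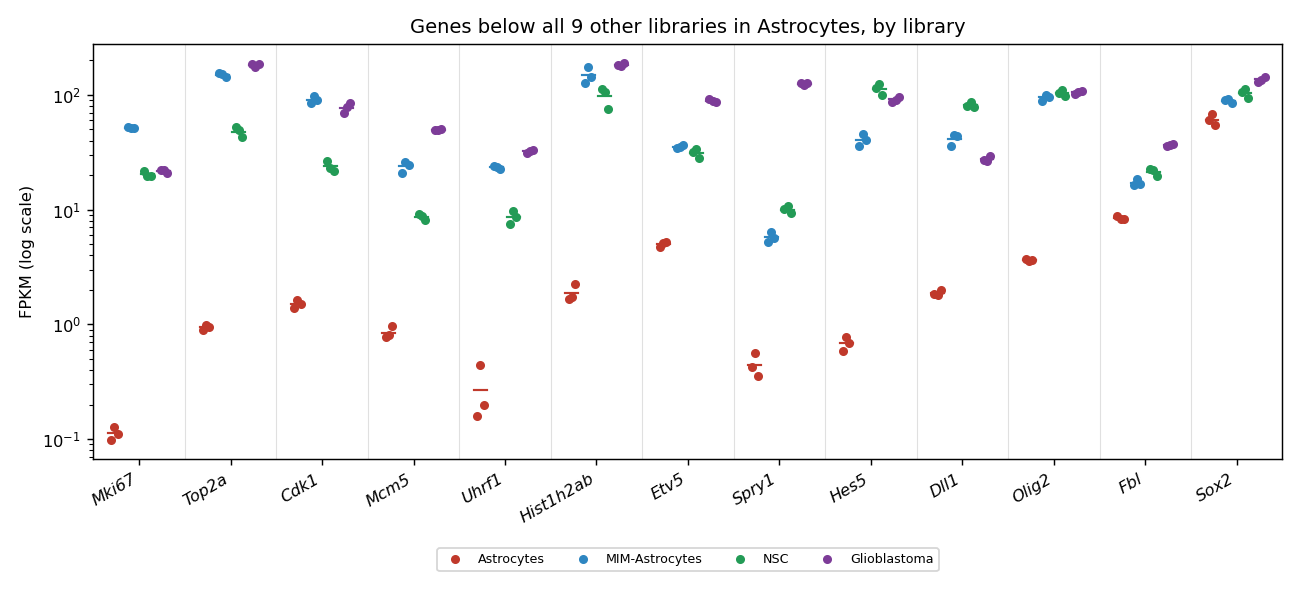
FPKM (log axis) of 13 genes below all 9 other libraries in Astrocytes, 1 point per library and a bar at the mean of 3, Astrocytes leftmost in each column. Mki67 sits at 0.0982 to 0.128 FPKM in Astrocytes and at 19.6 or more in every other library, while Sox2 differs by far less, with 54.5 to 68.5 FPKM in Astrocytes.

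DNA synthesis genes were low as well. Of 46 replication genes tested 42 lay below and 0 above (median difference -1.94). Mcm5 and Mcm6 encode subunits of the ring-shaped helicase that opens DNA at replication origins. Mcm5 had 0.77, 0.804 and 0.971 FPKM in Astrocytes, against 21, 26.1 and 24.4 in MIM-Astrocytes, 9.22, 8.81 and 8.08 in NSC libraries and 49.1, 49.3 and 50.9 in Glioblastoma. Mcm6 had 1.93, 1.84 and 1.72 FPKM in Astrocytes, against 19.8, 21.4 and 18.52 in MIM-Astrocytes, 12.6, 10.2 and 9.09 in NSC libraries and 53.4, 53 and 55.2 in Glioblastoma. Both subunits were lower, with differences of -3.64 (SE 0.07, adjusted p = 1.31e-11) and -3.06 (SE 0.08, adjusted p = 1.51e-10), while Mcm7, whose locus overlaps Ap4m1 and Cops6 on the opposite strand, had 7.33 to 7.97 FPKM in Astrocytes, against 35.1 to 79.2 in the others. Rrm2, the small subunit of the enzyme that makes deoxynucleotides, had 0.563 to 0.787 FPKM in Astrocytes, against 6.27 to 42.7 in the others, a difference of -3.74 (SE 0.06, adjusted p = 9.79e-12).

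Of 25 genes for the chromatin that is built behind the replication fork 22 lay below and 0 above (median difference -1.65). Uhrf1, which brings the maintenance DNA methyltransferase to new DNA, had 0.16, 0.439 and 0.2 FPKM in Astrocytes, against 23.8, 23.6 and 22.7 in MIM-Astrocytes, 7.52, 9.79 and 8.55 in NSC libraries and 31.3, 32.2 and 33.1 in Glioblastoma. All 3 Astrocytes libraries were under 1 FPKM (difference -3.97, SE 0.08, adjusted p = 2.42e-11). Lmnb1, a lamin of the nuclear envelope, had 1.29 to 1.68 FPKM in Astrocytes, against 14 to 40.5 in the others, and Hmgb2, a chromatin protein of proliferating cells, 7.52 to 9.89 FPKM in Astrocytes, against 36.5 to 67.7 in the others.

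Replication-dependent histone genes, which are transcribed in bulk only while DNA is copied, lay below in 52 of 57 cases, with 0 above and a median difference of -3.45. They supply 8 of the 10 genes named for the largest distances on the low side: Hist1h3b, Hist1h2ap, Hist1h2ab, Hist1h2ao, Hist1h3c, Hist1h2ag, Hist2h2bb and Hist1h2bm. Hist1h2ab, a histone of the H2A class (ENSMUSG00000061615.2, chr13:23751126-23751598, plus strand), had 1.66, 1.74 and 2.24 FPKM in Astrocytes, against 128, 177 and 142 in MIM-Astrocytes, 113, 106 and 74.7 in NSC libraries and 181, 179 and 190.2 in Glioblastoma. Hist2h2bb, of the H2B class, had 7.26, 11.4 and 7.94 FPKM in Astrocytes, against 223, 265 and 238 in MIM-Astrocytes, 397, 384 and 315 in NSC libraries and 580.3, 649 and 702 in Glioblastoma. Neither gene's Astrocytes values came near the others, with differences of -5.60 (SE 0.13, adjusted p = 7.57e-11) and -5.31 (SE 0.13, adjusted p = 8.25e-11). Copies of these genes are nearly identical, so reads may be shared among them, and the strandedness of the libraries is unknown: gene models on the opposite strand of Hist1h2ab, Hist1h2ag, Hist1h2ao and Hist1h2ap were low with them and cannot be told apart from them. The same holds for an antisense model at Hist2h2bb, which averaged 0.866 FPKM in Astrocytes, against 22.2 in the others. DNA repair and checkpoint genes had 27 of 34 members below and 1 above (median difference -1.34). Exo1, a nuclease of mismatch repair and recombination, had 0.0793 to 0.18 FPKM in Astrocytes, against 3.56 to 25.4 in the others, and Chek1, the checkpoint kinase of stalled forks, 0.751 to 1.04 FPKM in Astrocytes, against 4.14 to 26.7 in the others. The member above was Rpa1, which coats single-stranded DNA, with 66.6 to 83.5 FPKM in Astrocytes, against 17.8 to 48.4 in the others.

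Promoters of the lists were searched for short motifs on both strands in RefSeq windows of GRCm38, 250 bases before to 50 after each start site. A promoter here stands for 1 gene, counted once when any of its windows held a match. A gene with more windows therefore had more chances of a match. The CHR, searched as TTTGAA or TTCGAA, was present in 45 of 66 mitosis promoters (68.2%), against 21.7% of all 27025 promoters in the table and 16.4% of those of tested protein-coding genes. It was present in 26 of 53 histone promoters (49.1%) and in 8 of 37 replication promoters (21.6%). The E2F motif, searched as TTTCCCGC or TTTGGCGC, was found in 11 of 37 replication promoters (29.7%), against 1.80% of all promoters, 3.50% of those of tested protein-coding genes and 9.09% of the mitosis promoters. A CCAAT box was found in 66.7% of mitosis, 51.4% of replication and 84.9% of histone promoters, against 41.1% of all and 44% of those of tested protein-coding genes. The sets differ in base composition: CG dinucleotides had a median of 7.69% in mitosis, 8.03% in replication and 3.68% in histone promoters, against 7.02% in tested protein-coding genes and 2.34% in all. RefSeq windows matched 66 of 76, 37 of 46 and 53 of 57 tested members of these lists. A match describes letters and is neither a site nor a cause. The stretches below show the CHR (capitals, either strand) in 8 mitosis and cycle genes that lay below all 9, chosen among those that hold it, as examples of where the letters stand.
Ccnb2 (chr9:70421535-70421575, minus strand): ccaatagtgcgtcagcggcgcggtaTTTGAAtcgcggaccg
Cdk1 (chr10:69352897-69353008, minus strand): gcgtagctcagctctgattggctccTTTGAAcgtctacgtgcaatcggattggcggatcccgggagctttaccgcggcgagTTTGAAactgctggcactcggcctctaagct
Cdc20 (chr4:118437331-118437386, minus strand): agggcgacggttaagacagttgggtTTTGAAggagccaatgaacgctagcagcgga
Ube2c (chr2:164769875-164769930, plus strand): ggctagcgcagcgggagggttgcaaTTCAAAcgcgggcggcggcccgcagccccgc
Prc1 (chr7:80294421-80294470, plus strand): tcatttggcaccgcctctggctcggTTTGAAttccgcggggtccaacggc
Top2a (chr11:99024182-99024339, minus strand): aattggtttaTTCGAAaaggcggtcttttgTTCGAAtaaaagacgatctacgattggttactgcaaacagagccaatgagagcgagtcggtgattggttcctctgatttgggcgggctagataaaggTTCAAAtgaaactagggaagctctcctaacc
Mki67 (chr7:135716447-135716520, minus strand): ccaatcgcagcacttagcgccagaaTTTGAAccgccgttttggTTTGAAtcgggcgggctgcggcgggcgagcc
Kif23 (chr9:61946780-61946822, minus strand): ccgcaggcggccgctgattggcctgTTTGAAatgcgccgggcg
Cdk1 and Mki67 hold 2 matches in the stretch and Top2a 3, and the CCAAT letters, or ATTGG on the other strand, stand within the same stretch in several of them. The next pair shows the E2F motif (capitals, either strand) in Mcm5 and Mcm6, chosen among the genes that hold it. The same search for a stretch gave none for most of the genes tried for the E2F motif, among them Mcm7, Rrm2 and Exo1, whose values are also given above. For the CHR it gave none for Ccnb1, whose values are given above too.
Mcm5 (chr8:75109359-75109392, plus strand): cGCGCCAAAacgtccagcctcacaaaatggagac
Mcm6 (chr1:128359720-128359840, minus strand): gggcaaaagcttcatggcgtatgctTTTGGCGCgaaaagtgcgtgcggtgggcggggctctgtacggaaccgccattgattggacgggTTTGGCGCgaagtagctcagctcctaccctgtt
Mcm6 holds 2 matches and Mcm5 1.

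**Figure D3:**
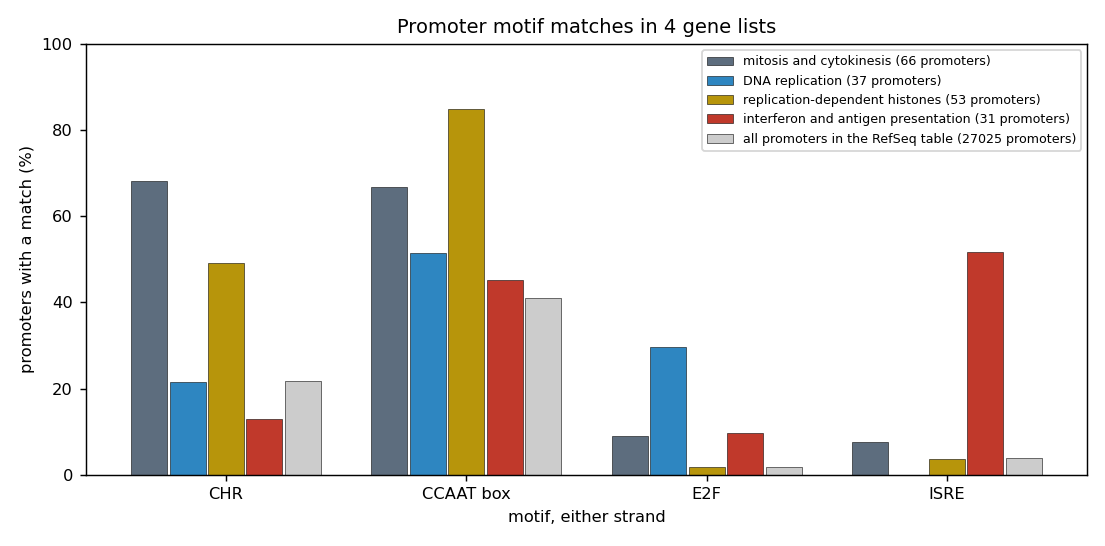
Share of promoters (%) with at least 1 match to each of 4 motifs, for 4 gene lists and for all 27025 genes of the RefSeq table (light grey). A promoter is counted once per gene, with a match in any of its windows. The CHR stands out in mitosis genes (68.2%), the E2F motif in replication genes (29.7%) and the ISRE in interferon genes (51.6%), against 21.7%, 1.80% and 3.99% of all promoters and 16.4%, 3.50% and 3.58% of those of tested protein-coding genes.

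The brakes of the cycle did not form a matching set of high genes. Of 53 growth arrest genes and CDK inhibitors tested 13 lay above and 8 below, against 17.3% and 22.5% of all tested genes, with a median difference of 0.03. Under the 4 scalings 15 to 21 lay above and 5 to 7 below, beside 3591 to 4946 above and 1904 to 3283 below over all tested genes. Cdkn1a, the p21 inhibitor induced by p53, had 12, 11 and 10.6 FPKM in Astrocytes, against 20.04, 20.8 and 21.5 in MIM-Astrocytes, 5.93, 5.85 and 5.79 in NSC libraries and 11.1, 10.5 and 10.7 in Glioblastoma. Astrocytes lay between MIM-Astrocytes and NSC and overlapped Glioblastoma, with a difference of 0.02 (SE 0.04, adjusted p = 0.737). Cdkn1b, the p27 inhibitor of quiescent cells, had 29.9, 35.3 and 27.5 FPKM in Astrocytes, against 25.4, 25.7 and 23.4 in MIM-Astrocytes, 42.2, 42.8 and 35 in NSC libraries and 46.7, 45 and 46.4 in Glioblastoma. Astrocytes lay above MIM-Astrocytes, overlapped NSC and lay below Glioblastoma, and the difference, -0.21 (SE 0.08, adjusted p = 0.0351), turned to 0.23 after rescaling to a common total. Cdkn1c, the p57 inhibitor, stood at 0.85 to 1.95 FPKM in Astrocytes, against 0.558 to 14.5 in the others, and overlapped them.

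At the Ink4 locus Glioblastoma stood highest. Cdkn2a, which encodes p16 and p19Arf, had 9.19, 10.7 and 8.66 FPKM in Astrocytes, against 5.01, 5.61 and 5.47 in MIM-Astrocytes, 9.54, 8.73 and 7.43 in NSC libraries and 106, 107 and 114 in Glioblastoma. Astrocytes overlapped NSC and lay above MIM-Astrocytes, and the low overall value (difference -0.84, SE 0.08, adjusted p = 2.35e-06) became 0.43 without Glioblastoma. Cdkn2b, the p15 inhibitor that TGF-beta induces, had 13.3, 14.7 and 11.8 FPKM in Astrocytes, against 5.82, 5.61 and 6.27 in MIM-Astrocytes, 4.15, 3.74 and 3.49 in NSC libraries and 20.01, 21.8 and 22.1 in Glioblastoma. It was above MIM-Astrocytes and NSC by 1.04 and 1.57 and below Glioblastoma by 0.65 on the same scale. Trp53 had 5.8 to 6.29 FPKM in Astrocytes, against 5.33 to 17 in the others, and overlapped MIM-Astrocytes (difference -0.04).

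Other arrest and stress genes did lie above all 9. Gadd45a, a stress-induced inhibitor of the cycle, had 56.3, 61.6 and 51.9 FPKM in Astrocytes, against 7.15, 8.99 and 7.57 in MIM-Astrocytes, 9.49, 10.5 and 8.71 in NSC libraries and 13.7, 14.7 and 14.3 in Glioblastoma, a difference of 2.35 (SE 0.08, adjusted p = 7.37e-10). Foxo3, a transcription factor held out of the nucleus by growth factor signalling, had 40.6 to 42.9 FPKM in Astrocytes, against 9.69 to 20.7 in the others, and Sesn1, a sestrin that restrains mTORC1, 47.9 to 56.2 FPKM in Astrocytes, against 10.1 to 26.6 in the others. Gadd45b was higher as well, with a difference of 1.74 (SE 0.06, adjusted p = 9.59e-10). Below all 9 lay Btg2, an antiproliferative factor, with 5.67 to 6.23 FPKM in Astrocytes, against 17.9 to 35.3 in the others, and Plk2, a stress-responsive kinase, with 1.48 to 2.18 FPKM in Astrocytes, against 10.4 to 70.4 in the others.

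**Figure D4:**
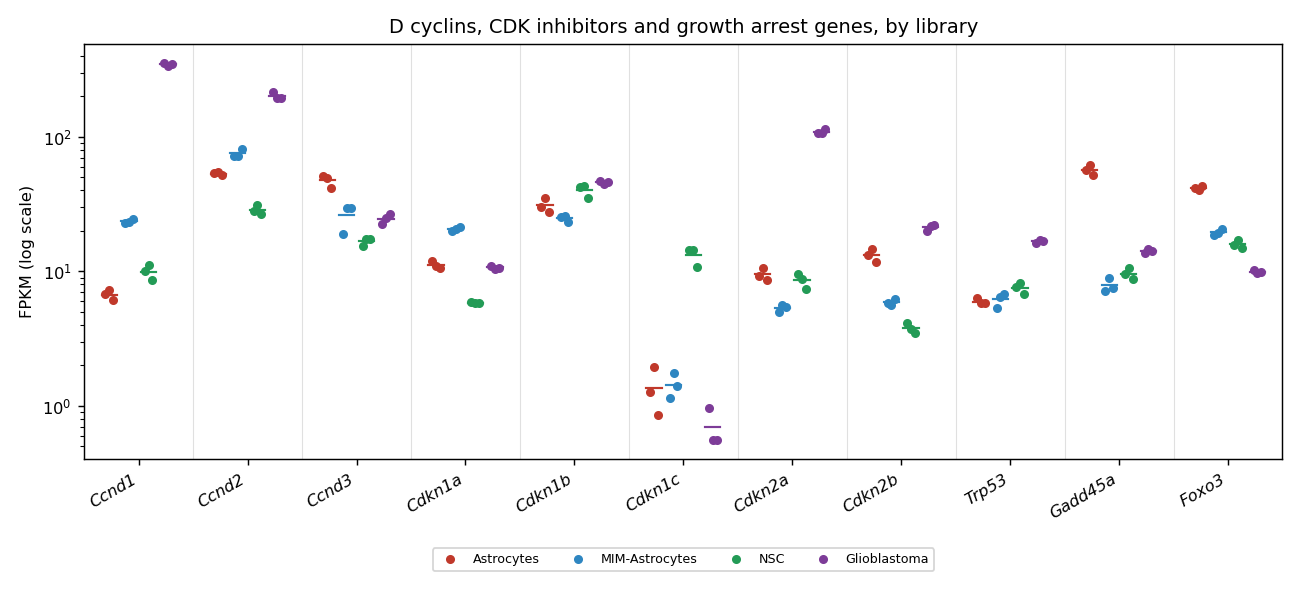
FPKM (log axis) of the 3 D cyclins, 5 CDK inhibitors, Trp53, Gadd45a and Foxo3, 1 point per library and a bar at the mean of 3, Astrocytes leftmost in each column. The 5 inhibitors show no common order, Ccnd1 is lowest in Astrocytes at 6.11 to 7.25 FPKM, and Ccnd3, Gadd45a and Foxo3 are highest in Astrocytes.

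Growth factor signalling was read from genes that ERK, the kinase downstream of EGF and FGF receptors, induces. Of 20 such genes 13 lay below and 0 above, with a median difference of -1.67. Etv5, an ETS factor of the FGF pathway, had 4.77, 5.15 and 5.23 FPKM in Astrocytes, against 34.6, 34.9 and 36.8 in MIM-Astrocytes, 31.6, 33.9 and 28.3 in NSC libraries and 92.5, 87.7 and 86.3 in Glioblastoma. Spry1, a feedback inhibitor of the same pathway, had 0.423, 0.561 and 0.353 FPKM in Astrocytes, against 5.21, 6.43 and 5.61 in MIM-Astrocytes, 10.1, 10.7 and 9.33 in NSC libraries and 126, 123 and 126 in Glioblastoma. Both were lowest in Astrocytes and highest in Glioblastoma, with differences of -2.96 (SE 0.05, adjusted p = 1.48e-11) and -3.87 (SE 0.06, adjusted p = 6.83e-12). Etv4 had 1.32 to 2.17 FPKM in Astrocytes, against 21 to 79 in the others. Ccnd1, the D cyclin that links mitogens to the cycle, had 6.81, 7.25 and 6.11 FPKM in Astrocytes, against 23, 23.3 and 24.6 in MIM-Astrocytes, 10.02, 11.2 and 8.65 in NSC libraries and 355, 338 and 347 in Glioblastoma. It was called at -2.56 (SE 0.07, adjusted p = 1.97e-10), NSC was only 0.50 away, and after rescaling to a common total its libraries were no longer all below the others.

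Egfr, the receptor itself, had 19.7, 20.4 and 19.7 FPKM in Astrocytes, against 138, 150.0 and 166 in MIM-Astrocytes, 167, 173 and 171 in NSC libraries and 12, 13.5 and 12.9 in Glioblastoma. Astrocytes lay above Glioblastoma and below the other 2 groups, so Egfr met neither side of the rule. Ccnd2 likewise had 51.7 to 54.5 FPKM in Astrocytes, against 26.8 to 216 in the others, and lay between groups. Myc stood at 3.42 to 3.48 FPKM in Astrocytes, against 3.88 to 24.9 in the others, below all 9 as deposited but not after 3 of the 4 scalings tried.

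Ribosome biogenesis genes, which scale with growth, had 21 of 36 members below and 0 above (median difference -0.76), and 10 to 20 below and 1 to 3 above under the 4 scalings. All tested genes then had 1904 to 3283 below and 3591 to 4946 above. Fbl, the methyltransferase of ribosomal RNA, had 8.82, 8.36 and 8.35 FPKM in Astrocytes, against 16.3, 18.497 and 16.9 in MIM-Astrocytes, 22.6, 22.3 and 19.6 in NSC libraries and 35.8, 36.5 and 37.3 in Glioblastoma. Every Astrocytes library was below every other (difference -1.39, SE 0.05, adjusted p = 2.49e-09). Npm1, a nucleolar chaperone, had 46.4 to 58.2 FPKM in Astrocytes, against 85.2 to 380.4 in the others. Nop56 and Nop58, core proteins of the particles that methylate ribosomal RNA, had 13 to 19.1 FPKM in Astrocytes, against 28 to 120.3 in the others, for Nop56, and 17.7 to 23.3 FPKM in Astrocytes, against 30.7 to 114 in the others, for Nop58, and both loci overlap small nucleolar RNA genes on the same strand.

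Astrocyte markers were divided. Of 46 tested 14 lay above all 9 and 1 below (median difference 1.06), and 31 did neither. The median difference was -0.15 from MIM-Astrocytes, 0.53 from NSC and 2.12 from Glioblastoma. Gfap, the intermediate filament protein (ENSMUSG00000020932.14, chr11:102887336-102900912, minus strand), had 259.6, 273 and 241 FPKM in Astrocytes, against 7.44, 7.5 and 7.11 in MIM-Astrocytes, 0.851, 0.883 and 1.16 in NSC libraries and 2.95, 3.11 and 3.55 in Glioblastoma. Its Astrocytes values exceeded every other library, with a difference of 5.98 (SE 0.06, adjusted p = 5.18e-13). Aqp4, the water channel of astrocyte endfeet, had 391, 427 and 373 FPKM in Astrocytes, against 36.4, 35.9 and 34.1 in MIM-Astrocytes, 11.3, 11 and 9.93 in NSC libraries and 0.157, 0.103 and 0.115 in Glioblastoma. Slc39a12, a zinc transporter of astrocytes, was in the same order with 225 to 263 FPKM in Astrocytes, against 0 to 31.3 in the others, and both were ordered Astrocytes, MIM-Astrocytes, NSC, Glioblastoma without overlap (differences 5.66, SE 0.05, adjusted p = 2.34e-13 and 5.49, SE 0.05, adjusted p = 1.37e-13). Clu, a secreted chaperone, had 763 to 937 FPKM in Astrocytes, against 2.18 to 101 in the others.

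Other defining markers did not follow. Aldh1l1, the folate enzyme used as a pan-astrocyte marker, had 67.9, 77.5 and 67 FPKM in Astrocytes, against 75.2, 76.3 and 75 in MIM-Astrocytes, 98.8, 103 and 89.5 in NSC libraries and 2.51, 2.09 and 2.11 in Glioblastoma. Astrocytes overlapped MIM-Astrocytes, lay below NSC and were high only relative to Glioblastoma, so the difference of 1.31 became -0.27 without Glioblastoma. Slc1a3, the glutamate transporter GLAST by which one source of the cultures was sorted, had 399, 427 and 362 FPKM in Astrocytes, against 705, 965 and 910.4 in MIM-Astrocytes, 577, 586 and 509 in NSC libraries and 409.7, 387 and 402 in Glioblastoma. Its Astrocytes values overlapped Glioblastoma and lay below MIM-Astrocytes and NSC. S100b had 6.13, 6.44 and 5.33 FPKM in Astrocytes, against 24.6, 26 and 25.6 in MIM-Astrocytes, 7.25, 7.41 and 6.79 in NSC libraries and 1.5, 1.29 and 1.5 in Glioblastoma, a level that MIM-Astrocytes and NSC exceeded, and the difference of -0.21 turned to 0.15 after rescaling to a common total. Sox9, a glial transcription factor, was above all 9 at 15.9 to 21 FPKM in Astrocytes, against 10.4 to 13.4 in the others, and Vim, the intermediate filament shared by astrocytes and progenitors, at 2104 to 2536 FPKM in Astrocytes, against 794 to 1231 in the others. Mfge8, a phagocytosis bridge made by astrocytes, was the marker below all 9, at 17.3 to 21.7 FPKM in Astrocytes, against 50.9 to 533 in the others.

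**Figure D5:**
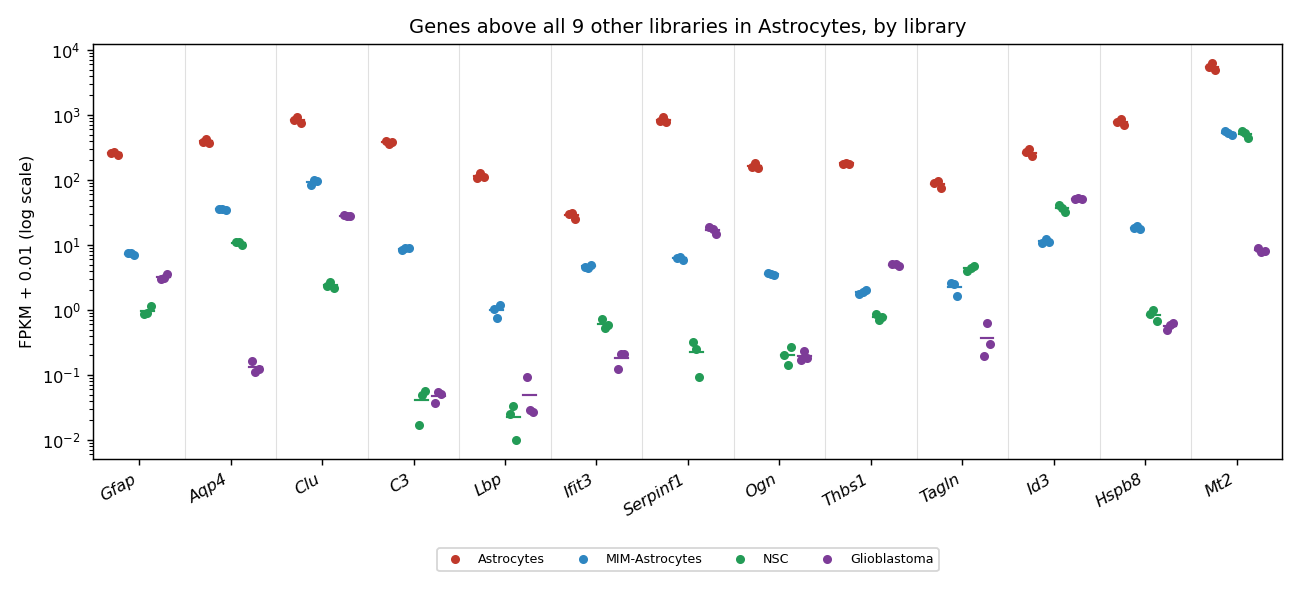
FPKM + 0.01 (log axis) of 13 genes above all 9 other libraries in Astrocytes, 1 point per library and a bar at the mean of 3, Astrocytes leftmost in each column. C3 and Lbp reach 108 FPKM or more in every Astrocytes library and stay under 10 FPKM in every other, and Mt2 is the most abundant at 4876 to 6335 FPKM.

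Reactive astrocyte and acute phase genes had 21 of 32 tested members above and 2 below (median difference 1.74), of 40 listed, and 11 of the 21 reached the limit of 1 FPKM only with the help of Astrocytes. Lbp, which carries bacterial lipopolysaccharide to its receptor and is known as a liver acute phase protein, had 108, 129.8 and 111 FPKM in Astrocytes, against 1.04, 0.732 and 1.19 in MIM-Astrocytes, 0.0155, 0.0236 and 0 in NSC libraries and 0.0841, 0.0186 and 0.0168 in Glioblastoma. It was near 0 outside Astrocytes and MIM-Astrocytes, with a difference of 6.51 (SE 0.08, adjusted p = 9e-13). Cp, the copper-bound ferroxidase ceruloplasmin, had 460.5, 489.7 and 447 FPKM in Astrocytes, against 52.5, 50.5 and 48.4 in MIM-Astrocytes, 22.1, 20.6 and 20.9 in NSC libraries and 2.21, 2.43 and 2.54 in Glioblastoma. Hspb1, a small heat shock protein of reactive astrocytes, had 19.4 to 26.4 FPKM in Astrocytes, against 0.0156 to 1.01 in the others. Gbp2, an interferon-induced GTPase used as a marker of inflammatory reactive astrocytes, had 8.06 to 10.3 FPKM in Astrocytes, against 0.111 to 0.708 in the others. The 2 members below all 9 were Amigo2, an adhesion molecule, with 0.234 to 0.436 FPKM in Astrocytes, against 0.887 to 2.59 in the others, and B3gnt5, a glycosyltransferase, with 3.64 to 5.69 FPKM in Astrocytes, against 6.27 to 21.6 in the others, and B3gnt5 left that side under each of the 4 scalings.

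Of 24 complement genes listed 14 were tested, of which 10 lay above and 0 below (median difference 1.68). Of the 10 tested members that passed in the 9 others alone 6 lay above, and 10 of the 24 stayed under 1 FPKM in Astrocytes, 6 of them at 0. C3, the central component (ENSMUSG00000024164.15, chr17:57203970-57228136, minus strand), had 395, 360.3 and 382 FPKM in Astrocytes, against 8.41, 8.94 and 9.02 in MIM-Astrocytes, 0.00696, 0.0397 and 0.0463 in NSC libraries and 0.0266, 0.0455 and 0.0407 in Glioblastoma. It was at or below 0.0463 FPKM in NSC and Glioblastoma, with a difference of 7.44 (SE 0.04, adjusted p = 1.05e-14). C1ra, a protease that starts the classical cascade, had 4.78 to 5.37 FPKM in Astrocytes, against 0.0147 to 0.357 in the others. The brakes of the cascade were among the high genes too: Serping1, the inhibitor of that protease, had 5.31 to 6.96 FPKM in Astrocytes, against 0.0239 to 0.523 in the others, and Cd59a, which blocks the membrane pore, 36.1 to 45.7 FPKM in Astrocytes, against 0.136 to 3.36 in the others. The microglial genes C1qa, C1qb and C1qc were listed at 0 in all 3 Astrocytes libraries.

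Interferon-induced and antigen presentation genes had 32 of 37 tested members above all 9 and 0 below (median difference 1.81), of 44 listed, and 33 or 34 above under the 4 scalings. Of the 29 that passed in the 9 others alone 25 lay above. Ifit3, an interferon-induced RNA-binding protein family member, had 29.6, 30.9 and 25.6 FPKM in Astrocytes, against 4.59, 4.41 and 5 in MIM-Astrocytes, 0.724, 0.515 and 0.581 in NSC libraries and 0.114, 0.203 and 0.2 in Glioblastoma. Ifit1, which binds foreign RNA, had 6.33, 7.25 and 5.78 FPKM in Astrocytes, against 0.287, 0.234 and 0.249 in MIM-Astrocytes, 0, 0.0223 and 0.0199 in NSC libraries and 0.344, 0.34 and 0.427 in Glioblastoma. Oasl2 had 14.2, 15.7 and 13.1 FPKM in Astrocytes, against 0.483, 1.05 and 0.641 in MIM-Astrocytes, 0.0339, 0.0297 and 0 in NSC libraries and 0.669, 0.645 and 0.509 in Glioblastoma. All 3 genes were higher in every Astrocytes library than in any other, with differences of 3.75 (SE 0.07, adjusted p = 1.12e-11), 2.63 (SE 0.06, adjusted p = 4.77e-11) and 3.44 (SE 0.09, adjusted p = 1.72e-10). The summed level of the list was 967 to 1208 FPKM in Astrocytes, against 327 to 388 in MIM-Astrocytes, 149 to 174 in NSC and 391 to 423 in Glioblastoma.

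The interferon-stimulated response element, searched as GAAA, any 2 bases and GAAA again on both strands, was found in 16 of 31 promoters of this list (51.6%), against 3.99% of all promoters and 3.58% of those of tested protein-coding genes, and RefSeq windows matched 31 of its 37 tested genes. A CHR match, which ends in GAA, can share letters with it. The stretches show it (capitals, either strand) in 4 genes above all 9, chosen among the genes of the list that hold it.
Ifit1 (chr19:34640760-34640838, plus strand): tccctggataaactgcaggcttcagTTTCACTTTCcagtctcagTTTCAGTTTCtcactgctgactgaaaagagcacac
Ifit3 (chr19:34583382-34583441, plus strand): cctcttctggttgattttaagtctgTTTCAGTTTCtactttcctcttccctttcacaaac
Isg15 (chr4:156200850-156200921, minus strand): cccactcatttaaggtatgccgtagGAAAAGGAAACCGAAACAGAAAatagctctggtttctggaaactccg
Gbp2 (chr3:142620579-142620638, plus strand): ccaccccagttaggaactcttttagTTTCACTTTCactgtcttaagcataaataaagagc
Ifit1 holds 2 matches and Isg15 3 that overlap. The same search for a stretch gave none for Oasl2, whose values are given above.

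Of 43 cytokine and chemokine genes listed 22 were tested. Of these 10 lay above and 5 below (median difference 0.73), against 17.3% and 22.5% of all tested genes. Of the 10 above, 4 reached the limit only with the help of Astrocytes. Cntf, a neurotrophic cytokine made by astrocytes, had 132, 149 and 115 FPKM in Astrocytes, against 3.99, 4.44 and 3.94 in MIM-Astrocytes, 2.09, 1.97 and 1.62 in NSC libraries and 1.36, 1.75 and 1.61 in Glioblastoma. It was high in every Astrocytes library (difference 5.30, SE 0.08, adjusted p = 5.47e-12), though its locus overlaps Zfp91 on the same strand. Csf1, the growth factor of microglia, had 66.5 to 69.5 FPKM in Astrocytes, against 3.41 to 10.3 in the others. Kitl, the ligand of the Kit receptor, and Vegfb lay below all 9, Kitl with 3.52 to 4.03 FPKM in Astrocytes, against 6.72 to 50.7 in the others, and Vegfb with 4.62 to 5.12 FPKM in Astrocytes, against 7.8 to 19.6 in the others.

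The contractile and YAP-responsive list had 18 of 34 tested members above and 1 below (median difference 1.04), of 40 listed, and 15 of 31 above among those that passed in the 9 others alone. Tagln, an actin-binding protein induced by serum response factor, had 89.3, 95.3 and 75.7 FPKM in Astrocytes, against 2.58, 2.53 and 1.65 in MIM-Astrocytes, 4.04, 4.44 and 4.73 in NSC libraries and 0.187, 0.617 and 0.289 in Glioblastoma. Ctgf and Cyr61, secreted matricellular proteins and textbook targets of YAP, had 16.7 to 17.9 FPKM in Astrocytes, against 0.0347 to 0.309 in the others, for Ctgf, and 65.4 to 79.2 FPKM in Astrocytes, against 1.52 to 3.55 in the others, for Cyr61. Myl9, a myosin light chain, had 38.1 to 46.4 FPKM in Astrocytes, against 3.59 to 5.14 in the others. The differences were 4.93 (SE 0.12, adjusted p = 9.29e-11) for Tagln, 4.0 for Ctgf and 4.47 for Cyr61. Tagln2, a paralogue of Tagln, was the member below as deposited, at 0.104 to 0.285 FPKM in Astrocytes, against 0.301 to 23.6 in the others, and left that side under each of the 4 scalings.

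Matrix genes split. Of 56 matrix and protease genes other than collagens tested, of 70 listed, 26 lay above and 13 below (median difference 0.76). Over all tested genes the shares were 17.3% above and 22.5% below. Of the 51 list members that passed in the 9 others alone 21 lay above. Thbs1, a matricellular protein that activates latent TGF-beta (ENSMUSG00000040152.8, chr2:118111876-118127133, plus strand), had 176, 185 and 177 FPKM in Astrocytes, against 1.76, 1.87 and 1.99 in MIM-Astrocytes, 0.867, 0.702 and 0.774 in NSC libraries and 5.16, 5.04 and 4.77 in Glioblastoma. Serpinf1, the secreted antiangiogenic serpin also called PEDF, had 814, 946 and 778 FPKM in Astrocytes, against 6.41, 6.42 and 5.97 in MIM-Astrocytes, 0.314, 0.241 and 0.0842 in NSC libraries and 19.1, 17.6 and 15 in Glioblastoma. Ogn and Fmod, small leucine-rich proteoglycans, had 151 to 182 FPKM in Astrocytes, against 0.131 to 3.66 in the others, for Ogn, and 42.4 to 43.5 FPKM in Astrocytes, against 0 to 0.306 in the others, for Fmod. All 4 lay above all 9 without overlap, with differences of 5.85 (SE 0.04, adjusted p = 6.11e-14) for Thbs1 and 7.28 (SE 0.09, adjusted p = 9.53e-13) for Serpinf1. On the other side Vcan, the large proteoglycan of the embryonic brain matrix, had 1.6 to 2.51 FPKM in Astrocytes, against 15.3 to 70.5 in the others, and Fbln2, a matrix glycoprotein, had 0.217 to 0.246 FPKM in Astrocytes, against 4.69 to 82.5 in the others.

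Collagens had 9 of 26 tested members above and 4 below (median difference 0.11), of 38 listed, against 17.3% and 22.5% of all tested genes. Of the 9 above, 5 reached the limit only with the help of Astrocytes. Col4a6, a basement membrane chain, had 19.7 to 22.5 FPKM in Astrocytes, against 0.17 to 3.55 in the others, and its neighbour Col4a5 62.9 to 73.4 FPKM in Astrocytes, against 7.07 to 15.5 in the others. Col8a1 had 5.73 to 6.83 FPKM in Astrocytes, against 0 to 0.0647 in the others. The main fibrillar collagen of fibroblasts, Col1a1, had 2.14 to 3.41 FPKM in Astrocytes, against 0.0292 to 0.289 in the others, a low level even where it was highest. Col26a1 and Col28a1, below all 9 as deposited, left that side after quantile normalization, and Col26a1 also after rescaling to a common total.

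TGF-beta, BMP and Id genes had 21 of 33 tested members above and 6 below (median difference 1.05), of 43 listed. Of the 27 that passed in the 9 others alone 15 lay above. By role, the ligand Bmp6 had 25.4, 27.3 and 23.9 FPKM in Astrocytes, against 0.866, 0.742 and 0.753 in MIM-Astrocytes, 0.0828, 0.0807 and 0.0529 in NSC libraries and 0.0258, 0.0444 and 0.0476 in Glioblastoma. The ligand Tgfb3 had 18.9 to 23.8 FPKM in Astrocytes, against 0.373 to 3.06 in the others. The BMP antagonist Nog had 25.5 to 31.9 FPKM in Astrocytes, against 0.138 to 1.33 in the others, and the antagonist Nbl1 79.9 to 97.4 FPKM in Astrocytes, against 7.9 to 16.5 in the others. Of the responders, Id3, which blocks proneural factors and is induced by BMP, had 267, 295 and 231 FPKM in Astrocytes, against 10.8, 12.2 and 11.1 in MIM-Astrocytes, 40.7, 37.6 and 31.9 in NSC libraries and 51.3, 51.9 and 51.6 in Glioblastoma, and Smad6, the inhibitory Smad, had 6.79 to 7.98 FPKM in Astrocytes, against 0.0806 to 0.572 in the others. The differences of Bmp6, Id3 and Smad6 were 4.40 (SE 0.05, adjusted p = 5.18e-13), 3.19 (SE 0.08, adjusted p = 1.63e-10) and 2.76 (SE 0.06, adjusted p = 3.42e-11). The ligand Bmp7 and the signal carrier Smad3 were below all 9, with 0.741 to 0.792 FPKM in Astrocytes, against 1.43 to 12.4 in the others, for Bmp7, and 4.32 to 5.85 FPKM in Astrocytes, against 7.75 to 20.3 in the others, for Smad3.

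The IGF system had 4 of 15 tested members above and 2 below, of 19 listed, against 17.3% and 22.5% of all tested genes. The median difference of the list was -0.51. Of the 4 above, 1 reached the limit only with the help of Astrocytes. Of those below 1, Irs2, left that side under each of the 4 scalings. Igfbp5, a binding protein deposited in matrix, had 88.1, 79.4 and 93.7 FPKM in Astrocytes, against 3.79, 3.32 and 3.78 in MIM-Astrocytes, 5.7, 5.74 and 5.51 in NSC libraries and 10.3, 10.7 and 9.24 in Glioblastoma. Igfbp4, another binding protein, went the other way with 6.97, 7.52 and 6.7 FPKM in Astrocytes, against 287, 328 and 337 in MIM-Astrocytes, 45.2, 49.2 and 41.6 in NSC libraries and 55.1, 50.5 and 51.9 in Glioblastoma. The values of the 2 binding proteins did not overlap with the other groups on either side (differences 3.65, SE 0.06, adjusted p = 6.88e-12 and -3.52, SE 0.07, adjusted p = 1.7e-11). Igf1 had 2.88 to 3.05 FPKM in Astrocytes, against 0.0127 to 0.203 in the others.

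Lysosomal genes had 20 of 49 tested members above and 2 below (median difference 0.33), and 24 to 30 above under the 4 scalings. Ctsb and Ctsd, cathepsin proteases, had 801 to 931 FPKM in Astrocytes, against 68.7 to 181 in the others, for Ctsb, and 562 to 715 FPKM in Astrocytes, against 114 to 248 in the others, for Ctsd. Lgmn, an asparaginyl protease, had 99.1 to 118 FPKM in Astrocytes, against 30.2 to 51 in the others. Below all 9 were Asah1, acid ceramidase, with 31.2 to 38.6 FPKM in Astrocytes, against 49.1 to 81.4 in the others, and Gaa, acid glucosidase, with 13.6 to 15.8 FPKM in Astrocytes, against 16.7 to 58.5 in the others, and Gaa left that side after rescaling to a common total. Lipid genes had 9 of 40 tested members above and 5 below, against 17.3% and 22.5% of all tested genes (median difference 0.27), and 11 to 17 above and 2 to 5 below under the 4 scalings. For all tested genes the 4 scalings gave 3591 to 4946 above and 1904 to 3283 below. Lcat, which esterifies cholesterol on lipoproteins, had 60.2, 65.1 and 56 FPKM in Astrocytes, against 7.84, 9.31 and 9.72 in MIM-Astrocytes, 1.84, 1.44 and 1.42 in NSC libraries and 0.596, 0.696 and 0.772 in Glioblastoma, a difference of 4.13 (SE 0.08, adjusted p = 1.55e-11), and Acsl3, which activates fatty acids, had 280.4 to 324 FPKM in Astrocytes, against 43 to 125 in the others. Lpl and Vldlr were below, with 0.128 to 0.225 FPKM in Astrocytes, against 1.02 to 7.05 in the others, for Lpl, and 3.92 to 5.28 FPKM in Astrocytes, against 6.6 to 45.6 in the others, for Vldlr, which left that side after rescaling to a common total.

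Genes of metal, heat and oxidant defence had 19 of 38 tested members above and 3 below (median difference 1.04), of 41 listed, and 15 of 34 above among those that passed in the 9 others alone. Mt2, the zinc-binding metallothionein, had 5479.7, 6335 and 4876 FPKM in Astrocytes, against 571, 529 and 491 in MIM-Astrocytes, 571, 523 and 440.1 in NSC libraries and 9.06, 7.85 and 8.14 in Glioblastoma. It was the most abundant of the named genes, and MIM-Astrocytes and NSC overlapped between Astrocytes and Glioblastoma (difference 5.35, SE 0.10, adjusted p = 1.92e-11). Hspb8, a small heat shock protein of the chaperone pathway with Bag3, had 781, 877 and 709 FPKM in Astrocytes, against 18.49, 19.3 and 17.8 in MIM-Astrocytes, 0.852, 0.984 and 0.657 in NSC libraries and 0.48, 0.569 and 0.626 in Glioblastoma. It differed by 7.69 (SE 0.07, adjusted p = 2.56e-13), the largest difference among the named genes. Aldh1a1, which makes retinoic acid, had 105, 118 and 98.5 FPKM in Astrocytes, against 8.22, 10.2 and 9.92 in MIM-Astrocytes, 2.68, 2.76 and 2.49 in NSC libraries and 0.0137, 0.0462 and 0.0349 in Glioblastoma. The cystine transporter gene Slc7a11 and ferritin light chain gene Ftl1 lay below all 9, with 1.76 to 1.99 FPKM in Astrocytes, against 4.02 to 11 in the others, for Slc7a11, and 171 to 209.6 FPKM in Astrocytes, against 423 to 621 in the others, for Ftl1.

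Progenitor genes lay on both sides. Of 49 Notch, proneural and progenitor genes tested, of 54 listed, 22 lay below and 8 above, against 22.5% and 17.3% of all tested genes. The median difference of the list was -0.73. The median was -0.57 from MIM-Astrocytes, -0.83 from NSC and -0.10 from Glioblastoma. Under the 4 scalings 16 to 21 lay below and 9 to 11 above, beside 1904 to 3283 below and 3591 to 4946 above over all tested genes. Hes5, a Notch target that holds progenitors undifferentiated (ENSMUSG00000048001.7, chr4:154960923-154962371, plus strand), had 0.583, 0.782 and 0.686 FPKM in Astrocytes, against 35.9, 45.3 and 40.8 in MIM-Astrocytes, 114, 125 and 99.2 in NSC libraries and 87.4, 91 and 95.8 in Glioblastoma. Dll1, the ligand that activates Notch in neighbours, had 1.83, 1.82 and 2 FPKM in Astrocytes, against 35.6, 45.1 and 43.9 in MIM-Astrocytes, 80.1, 86 and 78.7 in NSC libraries and 27.3, 26.5 and 29.1 in Glioblastoma. Both were lowest in every Astrocytes library, with differences of -5.49 (SE 0.08, adjusted p = 3.93e-12) and -4.01 (SE 0.07, adjusted p = 9.75e-12). Hey1, another Notch target, lay above all 9, with 61.2 to 76.2 FPKM in Astrocytes, against 12.3 to 17.4 in the others, a difference of 2.07 (SE 0.08, adjusted p = 2.15e-09). Dner, a noncanonical Notch ligand, was above too, with 126 to 127 FPKM in Astrocytes, against 13.6 to 51.7 in the others.

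Olig2, the transcription factor of ventral progenitors and the oligodendrocyte lineage (ENSMUSG00000039830.9, chr16:91225457-91228677, plus strand), had 3.71, 3.56 and 3.62 FPKM in Astrocytes, against 88.4, 99.7 and 96.7 in MIM-Astrocytes, 104, 111 and 97.7 in NSC libraries and 102, 106 and 108 in Glioblastoma. The 9 other libraries held it within a narrow range while Astrocytes stood apart, with a difference of -4.47 (SE 0.05, adjusted p = 7.69e-13). Olig1 and Sox8, of the same lineage, had 26.7 to 30.9 FPKM in Astrocytes, against 191 to 387 in the others, for Olig1, and 6.65 to 8.24 FPKM in Astrocytes, against 59.2 to 99.6 in the others, for Sox8. Sox2, which marks stem cells and is kept by many astrocytes, had 59.95, 68.5 and 54.5 FPKM in Astrocytes, against 90.4, 92.1 and 84.7 in MIM-Astrocytes, 107, 112 and 94.3 in NSC libraries and 130.5, 135 and 143 in Glioblastoma, and was below all 9 by a small margin (difference -0.82, SE 0.07, adjusted p = 2.81e-06). Nes, the intermediate filament of stem cells, had 39.7 to 47.7 FPKM in Astrocytes, against 45.5 to 63.1 in the others, and overlapped Glioblastoma.

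Immediate early genes had 3 of 22 tested members above and 3 below, against 17.3% and 22.5% of all tested genes. Under the 4 scalings 4 to 7 lay above, beside 3591 to 4946 of all tested genes. The median difference of the list, -0.11, was above 0 under 3 of these scalings. Fosl2, a late Fos family member, was above at 4.02 to 4.82 FPKM in Astrocytes, against 0.745 to 2.54 in the others, and Nr4a1 below at 0.254 to 0.327 FPKM in Astrocytes, against 0.909 to 3.57 in the others.

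Markers of other cell types were examined because a serum culture can hold more than astrocytes. Ependymal genes, which build motile cilia, had 10 of 11 tested members above and 0 below (median difference 2.15), out of 22 listed, and the other 11 stayed under 1 FPKM in all 12 libraries. Of the 10 above, 4 reached the limit of 1 FPKM only with the help of Astrocytes. Their summed level was 97.3 to 117 FPKM in Astrocytes, against 21.9 to 24.5 in MIM-Astrocytes, 11.8 to 13 in NSC and 11 to 11.8 in Glioblastoma. Foxj1, the master regulator of motile cilia, had 33 to 41.2 FPKM in Astrocytes, against 0.259 to 12 in the others. Dynlrb2 and Enkur, parts of ciliary axonemes, had 14.3 to 18.6 FPKM in Astrocytes, against 0.134 to 3.02 in the others, for Dynlrb2, and 3.86 to 4.56 FPKM in Astrocytes, against 0.0188 to 0.243 in the others, for Enkur. Drc1, of the axonemal regulatory complex, had 6.54 to 9.06 FPKM in Astrocytes, against 0.208 to 1.15 in the others. The members under 1 FPKM went both ways. Mcidas and Tmem212 were at 0 in every Astrocytes library, and Hydin, at or under 0.0213 FPKM, and Ak7 were lowest there. Dnah5, Dnah11, Rsph4a, Tekt1 and Pifo were highest in Astrocytes. Of these Rsph4a had 0.821 to 0.992 FPKM in Astrocytes, against 0.0381 to 0.222 in the others. The part of ciliated cells in the astrocyte values was not tested.

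Meningeal fibroblast genes had 5 of 8 tested members above and 1 below, of 24 listed, and 2 of the 5 reached the limit only with the help of Astrocytes. Their summed level was 283 to 332 FPKM in Astrocytes, against 24.2 to 27 in MIM-Astrocytes, 26.9 to 30 in NSC and 18.52 to 19.8 in Glioblastoma. The sum in Astrocytes came from Ogn, Fmod and Islr, the last with 83.6 to 101 FPKM in Astrocytes, against 0.123 to 18.2 in the others. The other 2 members above were Col1a1, given before, and Foxc1, a transcription factor of the meninges, with 1.44 to 1.70 FPKM in Astrocytes, against 0.437 to 1.26 in the others. Of the 23 members measured, 18 stayed under 1 FPKM in Astrocytes and 14 in all 12 libraries. Lum, Twist2, Aldh1a2, Slc22a6 and Slc6a13 were at 0 in every Astrocytes library, and of these Slc6a13 alone passed 0.0425 FPKM in another library. Dcn reached 0.0980 FPKM at most in Astrocytes, Col1a2 0.0408 and Col3a1 0.0221, against 0.0422, 0.0342 and 0.348 in the others.

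Mural cell genes had 3 of 6 tested members above and 1 below, of 16 listed, with sums of 106 to 127 FPKM in Astrocytes, against 19 to 26.1 in the others. Tagln, Acta2 and Mcam, the members above, made up most of that sum. Pdgfrb, a receptor of pericytes too low to be tested, had 0.663 to 0.697 FPKM in Astrocytes, against 0.00840 to 0.0407 in the others, and so was highest in Astrocytes as well. Rgs5 had 0.0753 to 0.0881 FPKM in Astrocytes, below Glioblastoma and above MIM-Astrocytes and NSC. Myh11 reached 0.128 FPKM in both Astrocytes and MIM-Astrocytes, and Abcc9 was at 0 in Astrocytes and at 0.0437 FPKM or less elsewhere.

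Endothelial genes had 3 of 4 tested members above and 1 below, of 19 listed, and 2 of the 3 reached the limit only with the help of Astrocytes. The one below, Egfl7, left that side under each of the 4 scalings. Sums were 118 to 138 FPKM in Astrocytes, against 2.60 to 8.91 in the others. Of that sum Slco1a4, an organic anion transporter of brain vessels, held 113, 129 and 109.5 FPKM in Astrocytes, against 3.49, 2.73 and 2.04 in MIM-Astrocytes, 0.0838, 0.109 and 0.085 in NSC libraries and 0.00605, 0 and 0 in Glioblastoma. Ocln, of tight junctions, had 4.58 to 5.34 FPKM in Astrocytes, against 0.0852 to 1.03 in the others. Kdr, the main VEGF receptor, had 1.64 to 1.86 FPKM in Astrocytes, against 0.0948 to 0.241. Of the 19 members 16 stayed under 1 FPKM in Astrocytes and 14 in all 12 libraries. Cdh5, Sox17, Cldn5, Tie1 and Emcn were at or under 0.0153 FPKM in Astrocytes and at or under 0.0540 in the others. Mmrn2 and Ly6c1, too low to be tested, were highest in Astrocytes. They had 0.612 to 0.736 and 0.0682 to 0.237 FPKM there, against at most 0.546 and 0.0510 in the others. Microglial genes had 3 of 22 members tested, none above or below, with sums of 28.5 to 32.3 FPKM in Astrocytes, against 28.9 to 36.9 in the others. Trem2, Tyrobp, Siglech, Ptprc and Ctss were at 0 in every Astrocytes library. P2ry12, too low to be tested, was highest in Astrocytes, with 0.718 to 0.932 FPKM there, against at most 0.700 in the others. The part of any of these cells in the astrocyte values was not tested beyond these levels.

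Neuronal and oligodendrocyte lineage genes were mostly low. Neuronal genes had 6 of 11 tested members below and 1 above, of 28 listed, and 3 to 6 below under the 4 scalings. Their sums were 156 to 159.8 FPKM in Astrocytes, against 184 to 347 in the others. Map2 held most of the sum in Astrocytes. Elavl4, an RNA-binding protein of neurons, had 0.079 to 0.244 FPKM in Astrocytes, against 0.929 to 14.1 in the others, and the one above was Reln, the secreted positioning signal, with 31.5 to 34.6 FPKM in Astrocytes, against 1.97 to 5.31 in the others. Oligodendrocyte lineage genes had 10 of 14 tested members below and 1 above (median difference -1.61), of 20 listed. Their sums were 102 to 120.2 FPKM in Astrocytes, against 332 to 505 in the others. Pdgfra, the receptor of oligodendrocyte progenitors, had 0.401, 0.344 and 0.38 FPKM in Astrocytes, against 2.48, 2.59 and 2.48 in MIM-Astrocytes, 24, 26 and 23.3 in NSC libraries and 10.5, 10.01 and 10.3 in Glioblastoma. Astrocytes were lowest in each library (difference -2.87, SE 0.04, adjusted p = 2.93e-12), as they were for Lhfpl3, with 0.36 to 0.632 FPKM in Astrocytes, against 5.71 to 48.7 in the others, and Bcas1, with 0.0256 to 0.156 FPKM in Astrocytes, against 2.96 to 16.8 in the others.

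The remaining genes of the most separated high set carry different roles. Ahnak, a giant scaffold protein of the membrane skeleton, had 71.5, 73.4 and 70.9 FPKM in Astrocytes, against 0.984, 0.982 and 0.988 in MIM-Astrocytes, 0.152, 0.21 and 0.168 in NSC libraries and 0.92, 0.777 and 0.831 in Glioblastoma. Cemip, which starts the breakdown of hyaluronan, had 56.8, 56.9 and 59.1 FPKM in Astrocytes, against 0.385, 0.425 and 0.377 in MIM-Astrocytes, 0.383, 0.345 and 0.327 in NSC libraries and 0.729, 0.851 and 0.635 in Glioblastoma. Pcp4, a small modulator of calmodulin, had 91.6, 97.3 and 77.9 FPKM in Astrocytes, against 0.635, 0.814 and 0.949 in MIM-Astrocytes, 1.61, 1.83 and 1.67 in NSC libraries and 0.3, 0.19 and 0.171 in Glioblastoma. Every Astrocytes library lay far above every other in these 3 genes, with differences of 5.49 (SE 0.04, adjusted p = 4.56e-14), 5.30 (SE 0.04, adjusted p = 1.37e-13) and 5.63 (SE 0.08, adjusted p = 2.32e-12). Wisp2, a matricellular protein of the family of Ctgf and Cyr61, had 40.3, 45.4 and 37.6 FPKM in Astrocytes, against 0.091, 0.0614 and 0.0823 in MIM-Astrocytes, 0.0226, 0.0481 and 0 in NSC libraries and 0.101, 0.193 and 0.136 in Glioblastoma, a difference of 5.28 (SE 0.06, adjusted p = 5.22e-13).

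The libraries' strandedness is unknown, so reads of genes that overlap on opposite strands cannot be told apart. Among the genes named by rule, the following have such a partner with a mean of at least 1 FPKM, besides the histone genes and Mcm7. A noncoding or pseudogene partner overlaps Thbs1, Mt2, Hes5, Egfr, Olig1, Gadd45a, Lhfpl3, Col4a6, Map2, Ccnd2 and Top2a. A protein-coding partner overlaps Ogn (Cenpp), Bmp6 (Txndc5), Tagln (Pcsk7), Cp (Hps3), Prc1 (Rccd1), S100b (Dip2a), Ccnd1 (Oraov1), Ccnd3 (Bysl), Ctsb (Fdft1), Tgfb3 (Ttll5) and Nop56 (Idh3b). The partner of Ogn averaged 2.19 FPKM in Astrocytes, against 3.34 in the others, that of Thbs1 6.39, against 0.0517, and that of Ctsb 26.5, against 17.1. The partner of Egfr, Egfros, averaged 0.485 FPKM in Astrocytes, against 3.10 in the others, that of Olig1 0.0843, against 1.89, and that of Top2a 0, against 13.3.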

How the data were processed

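The authors deposited 1 gene table of FPKM per library, with a status and an interval for each value per the file headers. Cufflinks and the build GRCm38 are named in the submitters' processing notes, while the aligner, strandedness and filters are not given in the sources used here. FPKM keep no read count, so no count test was run, and depth was read only from the interval widths. Near 10 FPKM the upper end of the deposited interval lay 8.66% to 10.6% above the value, and near 1 FPKM 27.6% to 35.3% above it. The part of the interval below the value is not included in these percentages.

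Each table holds 53989 lines for 53932 gene identifiers, and repeated lines of 45 identifiers were summed. Gene types came from GENCODE M21, which lists 99.88% of the identifiers, 97.52% with the same start and end. Coordinates are those of the deposited tables. All 12 libraries entered a limma fit of log2(FPKM + 1) with a mean per group, no weights and 8 residual degrees of freedom, and p-values were adjusted by the Benjamini-Hochberg method with a threshold of 0.05. Groups come from the labels. Named genes are the 10 above and the 10 below all 9 with the largest difference from the nearest group and at least 5 FPKM, up to 4 genes of each list in its leading direction and up to 2 in the other, and a set of fixed genes. Foxj1, marker genes given as levels, promoter examples outside that rule and the genes of the other observations were chosen after their values were seen. The members and the 31 gene lists were chosen with earlier results of these data known. 43 listed genes stand on more than 1 list, and 5 (Fanca, Cdt1, Gins2, Foxc2, Tubb3) were not analysed here. A few genes are not reported here. For 8 of the 14 genes with a printed stretch, the bases after the start site of any of the gene's windows lay inside its GENCODE transcripts. Whether that was the printed window was not checked.

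The alternatives tried were 4 scalings, pseudocounts of 0.1 and 0.5, other filters, array weights, a two-group fit, a replicate block, a minimum difference, and leaving out each library and each group. Tools were Python 3.11.15 with pandas 2.3.3, NumPy 2.4.6, SciPy 1.17.1 and matplotlib 3.10.9, and R 4.3.3 with limma 3.58.1.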

Additional observations from a re-analysis of the deposited data

How the results depend on the processing

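After rescaling to a common total of FPKM 4946 genes lay above and 1904 below all 9, and limma called 8081 higher and 4150 lower. With a mean of at least 5 FPKM 1598 lay above, 3057 were called higher and 4970 lower, and with no filter 4440 lay above. The two-group fit, which puts the distance between the 3 other cultures into its error, called 2923 higher and 3667 lower. With a difference of at least 1 on the log2 scale, from the nearest group or in the contrast, 1001 lay above, 852 below, 1816 were called higher and 2159 lower. Leaving out 1 library at a time gave 2968 to 3325 above, 3850 to 4483 below, 4880 to 5204 called higher and 6937 to 7538 lower. It gave differences in the FPKM sum of -237232 to -182691, in the protein-coding share of 14.0 to 17.5 percentage points and in the small RNA share of -14.9 to -11.0. Replicate numbers are shared between groups. Deviations from the group means correlated at -0.058 to 0.097 over 18 pairs of the same number, against -0.121 to 0.0736 over 36 pairs of different numbers. Same-number pairs of Astrocytes and NSC had 0.0436, 0.0838 and 0.0970, while those of NSC and Glioblastoma were all below 0. Such weak values cannot show whether libraries of the same number share a culture, animal or batch. With the replicate block 5234 genes were called higher and 7465 lower.

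Of 4700 alternative values of the 169 named genes, 4640 kept direction and side of the threshold, 42 lost the threshold, 6 gained it and 12 reversed. Those that reversed all belong to genes that lay neither above nor below all 9. Without Glioblastoma the difference was -0.27 for Aldh1l1, 0.20 for Ccnd2, -0.00 for Cdkn1a and 0.43 for Cdkn2a. Without NSC it was -0.39 for Cdkn1a and 0.20 for Cdkn1c, and without MIM-Astrocytes 0.64 for S100b. After rescaling to a common total it was 0.15 for S100b, 0.11 for Nes and 0.23 for Cdkn1b, and after quantile normalization 0.07 for Slc1a3. Leaving out 1 library at a time gave -0.03 to 0.05 for Cdkn1a, the lowest without Astrocytes replicate 1 and the highest without Astrocytes replicate 3. The cause was not tested. Of the named genes above or below all 9, 12 left that side under at least 1 scaling. Values under 1 FPKM rest on few fragments, so differences among them are not resolved at this depth.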

Other observations

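Some of the widest separations lay outside the lists, in genes chosen after their values were seen. Fbxo2, an F-box protein that binds glycoproteins, averaged 657 ± 92.3 FPKM in Astrocytes, against 33.4 ± 3.59, 8.09 ± 0.527 and 2.93 ± 0.328 in MIM-Astrocytes, NSC and Glioblastoma (SD, n = 3 each). Neat1, the long noncoding RNA that builds paraspeckles, stood at 72.8 to 84.0 FPKM in Astrocytes, against 2.66 to 4.53 in the others. Thy1, a surface glycoprotein best known from neurons and T cells, stood at 117 to 134 FPKM in Astrocytes, against 2.64 to 5.81 in the others.

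On the low side, also chosen after their values were seen, were genes of transmitter handling, creatine synthesis and progenitors. Slc6a11, the GABA transporter GAT3, had 0.510 to 0.691 FPKM in Astrocytes, against 27.1 to 76.3 in the others. Grm5, the metabotropic glutamate receptor 5, had 1.33 to 2.16 FPKM in Astrocytes, against 50.4 to 82.9. Gatm, which starts creatine synthesis, had 0.172 to 0.338 FPKM in Astrocytes, against 14.5 to 35.3. Myt1, a zinc finger factor of neural progenitors, had at most 0.0385 FPKM in Astrocytes, against 14.8 to 71.5.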
